A study of Mus musculus with 23 samples.

Results

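The cytosolic heat shock proteins were followed on the arrays through 24 of 22690 probe sets, all those whose gene symbol is Hspa1a, Hspa1b, Hspa8, Hsph1, Dnajb1, Hspb1, Cryab, Hspb2, Hspb8 or Hspb7. The probe sets read 10 genes of the 12393 with a probe set of 1 symbol: 4 read Hspa8, 3 each read Hspa1b, Cryab, Hspb7 and Hspb8, 2 each read Hsph1, Dnajb1 and Hspb1, and 1 each reads Hspa1a and Hspb2. All 24 passed the filter on dim probe sets, which asks for 2 or more arrays with a signal of 100 or more, as did 19522 of all probe sets. A probe set is a group of short probes on the array that together read 1 transcript or a part of it.

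Heat shock proteins are chaperones that hold or refold damaged proteins. HSP70 proteins bind exposed stretches of unfolded chains in a cycle of ATP hydrolysis, which J-domain proteins speed up and HSP110 proteins reset, while small heat shock proteins form oligomers that keep unfolded chains soluble without using ATP. Several are induced by heat shock factor 1, which binds the heat shock element, a run of GAA units in alternating orientation, and skeletal muscle holds high levels of the small ones, where they bind desmin, actin and filamin at the sarcomere.

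The muscle was gastrocnemius of mice lacking emerin (emerin KO), mice lacking lamin A/C (lamin A/C KO) and control mice, the first a protein of the inner nuclear membrane and the second proteins of the nuclear lamina. Mutations of either gene cause Emery-Dreifuss muscular dystrophy. The 23 arrays fall into 9 groups, by genotype and by day 0, 3 or 4, where days 3 and 4 are counted from an injection and the design names staged degeneration and regeneration as its aim. Emerin KO had 2 arrays on day 0 and 3 each on days 3 and 4, lamin A/C KO had 3 on each day, and control had 2 on each day. The agent injected and the strains, ages and alleles are not given in the sources used here. The titles call the control arrays controls of the lamin A line. In emerin KO minus control and in emerin KO minus lamin A/C KO, genotype and line therefore cannot be told apart. The day 0 arrays of lamin A/C KO, 3 in number, are described as 0 days post-injection, while the day 0 arrays of emerin KO and control are described as not injected. The labels do not say whether this is a difference in wording or in handling. If it is one in handling, genotype and injection cannot be told apart wherever lamin A/C KO on day 0 is set against another group of day 0. Whether the arrays of 1 group came from separate mice is not stated, so the spread behind each p-value may be technical.

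The values are MAS5 signals, Affymetrix's summary of a probe set on a linear scale, rescaled to a trimmed mean of 500 per array, and the number of arrays limits their precision. The probe sets of a gene are called the brightest, the second and so on by their mean signal over all arrays. The signal of 1 probe set says nothing about its level against another probe set. Tests used limma on log2(signal + 32), so a log2 difference understates the change of a dim probe set, and a member is called where the Benjamini-Hochberg adjusted p over all 19522 probe sets is under 0.05. Values given as x ± y are log2 differences and standard errors, unless an SD is named. As a check of the labels, the brightest Lmna probe set read 53.0 to 109 on the 9 lamin A/C KO arrays, against 650.0 to 5334 on the other 14. However, the other 3 Lmna probe sets overlapped between lamin A/C KO and control on day 0. On days 3 and 4 the second Lmna probe set lay below control in lamin A/C KO, and the third and the fourth lay above it. Emd, the emerin gene, read 153 to 465 on the 8 emerin KO arrays and 587 to 871 on the other 15. RNA quality was read from Gapdh, as the signal of its 3′ control probe set over that of its 5′ one, and this ratio was 3.62 to 6.09 on the emerin KO day 3 arrays, 1.40 to 5.30 on the emerin KO day 4 arrays and 0.822 to 1.64 on the other 17, so in emerin KO the ratio moved with the day. Hspa1a and Hspa1b have nearly identical coding sequences, and probe sets whose ID ends in _x_at or _a_at may read more than 1 gene or transcript, so signal cannot be divided between these copies. Hspb2 lies at chr9:50751072-50752354, inside the RefSeq interval of Cryab, chr9:50745951-50756636 (GRCm38.p6).

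The inducible HSP70 genes Hspa1b and Hspa1a and the small heat shock genes Hspb1 and Cryab were higher in lamin A/C KO than in control on day 0. There 8 of 24 member probe sets, all of those 4 genes, were higher in lamin A/C KO and 0 were lower, beside 0.563% higher and 0.108% lower over all probe sets. The count was 5 with median scaling and 3 to 7 without single arrays, with 3 without control replicate 2 and 4 without control replicate 1. The median log2 difference was 0.44 over the 24 members and 0.03 over all probe sets tested, and 13 members had an unadjusted p under 0.05. By day 3 and day 4 limma called 0 members in either direction. The background was then 0.00512% higher and 0.0205% lower on day 3, and 0% higher and 0.0461% lower on day 4, and 5 and 1 members had an unadjusted p under 0.05.

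Between emerin KO and control, 1 member was higher and 0 were lower on day 0 (all probe sets: 0.927% higher and 1.71% lower), 3 were higher and 5 lower on day 3 (6.52% higher and 9.31% lower), and 1 was higher and 2 lower on day 4 (1.85% higher and 3.38% lower). Between emerin KO and lamin A/C KO, 1 member was higher and 8 were lower on day 0 (1.68% higher and 3.80% lower). The same comparison gave 1 higher and 3 lower on day 3 (3.44% higher and 5.91% lower), and 1 higher and 4 lower on day 4 (7.13% higher and 9.69% lower). The comparisons share arrays: the lamin A/C KO arrays of day 0 serve in both comparisons in which 8 members were called in 1 direction. With the Gapdh ratio as a covariate, 0 members were called between emerin KO and control or lamin A/C KO on day 3 or day 4. On day 3 each emerin KO array had a high ratio and no other day 3 array did, so genotype and RNA quality cannot be told apart there.

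**Figure D1:**
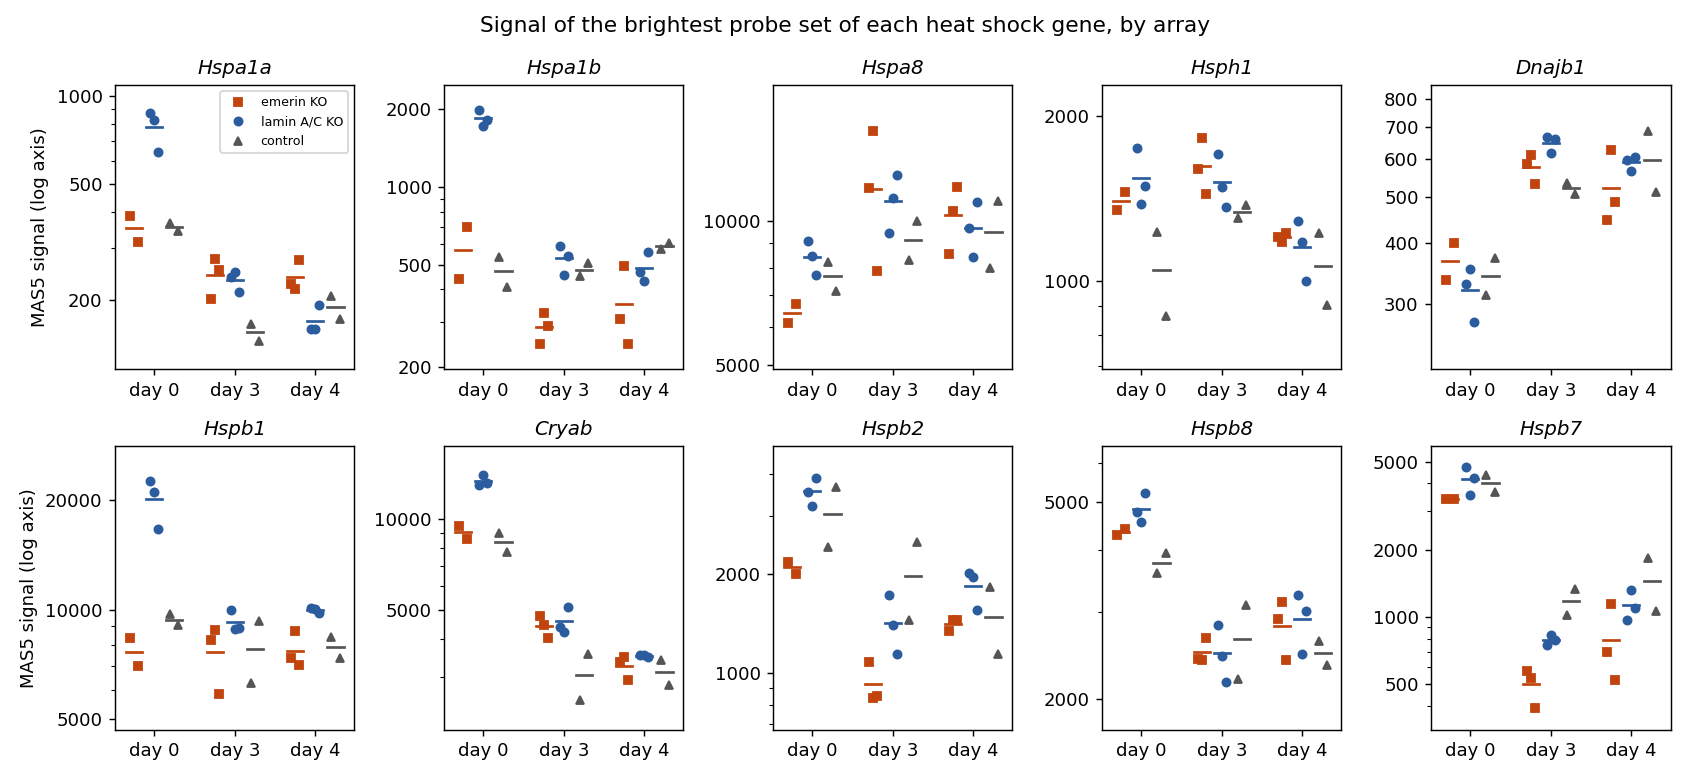
MAS5 signal (log axis) of the brightest probe set of each gene on every array, by day, with a bar at the group mean; each panel has its own scale. On day 0 the 3 lamin A/C KO arrays lie above all other day 0 arrays for Hspa1a, Hspa1b, Hspb1 and Cryab, and on days 3 and 4 Cryab, Hspb8 and Hspb7 lie below their own day 0 arrays in each genotype.

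After injury, by the brightest probe sets, the small heat shock genes Cryab, Hspb8 and Hspb7 and the inducible Hspa1a fell and the co-chaperone gene Dnajb1 rose in each genotype, by day 3 and by day 4. In control, 1 member rose and 8 fell between day 0 and day 3 (all probe sets: 18.0% higher and 12.7% lower), and 2 rose and 7 fell between day 0 and day 4 (17.1% higher and 12.7% lower). In emerin KO, 2 rose and 11 fell by day 3 (22.4% higher and 21.2% lower), and 2 rose and 10 fell by day 4 (21.3% higher and 19.8% lower). In lamin A/C KO, 1 rose and 14 fell by day 3 (21.1% higher and 18.6% lower), and 2 rose and 15 fell by day 4 (19.3% higher and 15.9% lower). The median log2 change by day 3 over the 24 members was -0.39 in emerin KO, -1.09 in lamin A/C KO and -0.13 in control, beside medians over all probe sets of -0.09 in emerin KO, -0.09 in lamin A/C KO and 0.08 in control. In the fit that includes the Gapdh ratio, 3 of the 13 emerin KO calls of day 3 and 3 of the 12 of day 4 were kept. The third Hspa1b probe set was then called higher in emerin KO on day 3 (1.53, adjusted p = 0.0049) and day 4 (1.07, adjusted p = 0.0072). Its mean signal in emerin KO was 183 on day 0, 186 on day 3 and 207 on day 4. Because the ratio moved with the day in emerin KO, day and ratio cannot be told apart in these calls. Between day 3 and day 4 limma called 0 members in control (0.00512% higher and 0% lower; 0 at an unadjusted p under 0.05) and 0 in emerin KO (0.681% higher and 0.200% lower; 6 at an unadjusted p under 0.05). In lamin A/C KO 1 rose and 0 fell between those days (1.33% higher and 0.615% lower; 5 at an unadjusted p under 0.05).

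Beside these changes, all 12 mature muscle fiber markers were lower and 12 or 13 of 13 macrophage markers were higher in each genotype on both days, as were 8 of 9 regenerating muscle markers. The summed signal of the 12 fiber markers, such as Ckm and Acta1, was 72012 to 83548 in emerin KO on day 3 against 304610.3 to 315428 on day 0, 83503 to 93942 in lamin A/C KO on day 3 against 276674 to 358863 on day 0, and 95821 to 135978 in control on day 3 against 311009.9 to 316404 on day 0. The summed macrophage markers were 59154 to 60819.9 in control on day 3 against 6430.0 to 8572 on day 0, and 0 of the 13 lay under a signal of 100 on all arrays of any group. In whole muscle, fewer fibers and less RNA per fiber cannot be told apart, and the part of cell composition in the members' changes was not tested.

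Whether the change after injury differed between genotypes was tested directly, as the change in a KO minus the change in control. For emerin KO limma called 0 members on day 3 (1.21% higher and 0.912% lower; 3 at an unadjusted p under 0.05) and 0 on day 4 (0.256% higher and 0.159% lower; 4 at an unadjusted p under 0.05). For lamin A/C KO, 0 were higher and 1 lower on day 3 (0% higher and 0.0871% lower), and 0 higher and 2 lower on day 4 (0.0205% higher and 0.123% lower). Each of these was a probe set of Hspa1b.

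Hspa1b and Hspa1a encode the stress-inducible HSP70, which is scarce in unstressed cells. They are neighbours on mouse chromosome 17, Hspa1b at chr17:34956429-34959238 and Hspa1a at chr17:34969359-34972156 (GRCm38.p6). The 250 bases upstream of each, from RefSeq on GRCm38.p6, are shown with those of Hspb1 because these genes were high together in lamin A/C KO on day 0. Capitals mark GAANNTTC, 2 facing GAA units of a heat shock element, searched on both strands along with TTCNNGAA. The Hspa1a window is chr17:34972157-34972406 and the Hspa1b window chr17:34959239-34959488, both on the minus strand, and the Hspb1 window is chr5:135887669-135887918 on the plus strand, each written 5′ to 3′.
Hspa1a: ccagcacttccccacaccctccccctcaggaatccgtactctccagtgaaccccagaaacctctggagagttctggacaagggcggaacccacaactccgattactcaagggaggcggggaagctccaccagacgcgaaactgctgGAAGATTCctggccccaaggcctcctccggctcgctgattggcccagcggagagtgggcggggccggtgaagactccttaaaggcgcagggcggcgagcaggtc
Hspa1b: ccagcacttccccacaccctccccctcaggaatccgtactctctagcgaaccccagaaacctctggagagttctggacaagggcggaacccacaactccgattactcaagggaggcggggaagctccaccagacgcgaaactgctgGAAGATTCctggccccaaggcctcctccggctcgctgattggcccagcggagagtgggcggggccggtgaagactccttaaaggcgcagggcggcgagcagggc
Hspb1: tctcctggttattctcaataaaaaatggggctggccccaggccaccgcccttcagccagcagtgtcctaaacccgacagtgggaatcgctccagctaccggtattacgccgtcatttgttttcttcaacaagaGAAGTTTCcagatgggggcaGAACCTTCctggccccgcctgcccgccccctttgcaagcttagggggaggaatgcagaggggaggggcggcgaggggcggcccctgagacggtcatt
The Hspa1a and Hspa1b windows differ at 3 positions and are 98.8% identical, and each holds GAANNTTC 1 time, starting 104 bases upstream of the start. The Hspb1 window holds it at 97 and 117 bases upstream.

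Of the 10 genes, 7 had a window, and Hspa8, Hspb2 and Cryab were not searched. GAANNTTC or TTCNNGAA was in 5 of the 9 windows of the 7 genes, 1 each of Hspa1a, Hspa1b and Hspb1 and, with TTCNNGAA, 2 overlapping windows of Hsph1. Of all 32851 windows 12.8% held either. The longer elements GAANNTTCNNGAA and TTCNNGAANNTTC were in 0.466% of all windows and in 0 of the members' windows. A match is a string of letters and not a measured site, and for Hspb7, Hspb8 and Dnajb1 no match says only that these letters are not in this window.

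On day 0 Hspa1b, by its brightest probe set, read 438 and 701 in emerin KO, 1992, 1725 and 1821 in lamin A/C KO and 536 and 408 in control. On day 3 Hspa1b read 246, 324 and 289.7 in emerin KO, 590.1, 454 and 539 in lamin A/C KO and 450.5 and 505 in control. On day 4 Hspa1b read 308, 495 and 247 in emerin KO, 466, 431 and 560.4 in lamin A/C KO and 574 and 609 in control. On day 0 the lamin A/C KO arrays stood above all 20 others, of any day, and the lamin A/C KO and control arrays overlapped on day 3. On day 3 the emerin KO arrays lay below those of both other genotypes, and on day 4 the 2 control arrays lay above those of both KO genotypes.

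On day 0 Hspa1b was 3.75-fold higher in lamin A/C KO than in control by this probe set (log2 difference 1.91 ± 0.23, adjusted p = 9.0e-05). The other 2 Hspa1b probe sets were higher too, the second probe set with 1.86 ± 0.20, adjusted p = 2.9e-05, and the third probe set with 1.65 ± 0.31, adjusted p = 0.010. Their day 0 signals also did not overlap. In lamin A/C KO the second probe set gave 1208, 1096 and 1251, where control had 334 and 273, and the third probe set gave 825, 913 and 789, where control had 242 and 248. Emerin KO on day 0 did not differ from control past the threshold (0.23 ± 0.25, adjusted p = 0.71 for the brightest probe set) and was lower than lamin A/C KO by all 3 probe sets, from -1.27 ± 0.20 to -2.06 ± 0.31 (adjusted p = 4.3e-04 and 2.2e-04). The call of the third probe set against control was lost without either control array of day 0, and those of the brightest and the second were kept under every alternative run. On day 3 emerin KO was lower than lamin A/C KO (-0.81 ± 0.20, adjusted p = 0.014) and control (-0.68 ± 0.23, adjusted p = 0.046) by the brightest probe set, and the second of these calls was lost under 11 of 13 alternatives. Both calls were lost in the fit that includes the Gapdh ratio.

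By day 3 Hspa1b had fallen in lamin A/C KO, with -1.75 ± 0.20, adjusted p = 4.4e-07 on day 3 and -1.86 ± 0.20, adjusted p = 2.6e-07 on day 4 for the brightest probe set. Its other probe sets fell as well, with log2 changes of -1.79 to -1.08. In control the same probe set did not change past the threshold, with 0.03 ± 0.25, adjusted p = 0.96 on day 3 and 0.32 ± 0.25, adjusted p = 0.39 on day 4. The second probe set was higher on day 4 (0.69 ± 0.22, adjusted p = 0.023), a call lost without control day 0 replicate 2 or control day 4 replicate 1. In emerin KO the brightest probe set fell by 0.89 on the log2 scale on day 3 (adjusted p = 0.0030), a call lost in the fit that includes the Gapdh ratio and without emerin KO day 0 replicate 2. The second probe set gave 0.10 ± 0.20, adjusted p = 0.72, and the third probe set gave 0.01 ± 0.31, adjusted p = 0.98. The lamin A/C KO change was lower than the control change by the brightest probe set on day 3 (-1.78 ± 0.32, adjusted p = 0.026), and the day 4 difference was -2.18 ± 0.32, adjusted p = 0.0035. By the second probe set the day 3 difference was -1.40 ± 0.29, adjusted p = 0.069, not called, and the day 4 difference was -2.03 ± 0.29, adjusted p = 0.0023, and both day 4 calls held under every alternative run. The day 3 difference of the brightest probe set lost its call with quantile normalization and with median scaling, and without any of 7 single arrays. The third probe set gave -1.77 ± 0.44, adjusted p = 0.23 on day 3 and -1.74 ± 0.44, adjusted p = 0.20 on day 4. In the fit that includes the Gapdh ratio its day 4 difference was called (-1.97, adjusted p = 0.0051). Lamin A/C KO minus control was 0.13 ± 0.23 on day 3 and -0.28 ± 0.23 on day 4 by the brightest probe set (adjusted p = 0.95 on day 3, not called on either day).

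Hspa1a has 1 probe set. On day 0 Hspa1a read 388 and 317 in emerin KO, 872, 828 and 639.7 in lamin A/C KO and 368 and 343 in control. On day 3 Hspa1a read 201, 276 and 253 in emerin KO, 240.1, 248 and 212 in lamin A/C KO and 165 and 145 in control. On day 4 Hspa1a read 226, 217 and 273 in emerin KO, 159, 159 and 191 in lamin A/C KO and 207 and 172 in control. On day 0 the lamin A/C KO arrays stood apart above both other genotypes, the control arrays stood apart below both on day 3, and the emerin KO arrays stood apart above both on day 4. The difference between lamin A/C KO and control on day 0 was 1.06 ± 0.19, adjusted p = 0.0066, or 2.08-fold. It lost its call without either control array of day 0 and in a fit of those groups alone. Between emerin KO and control it was 0.55 ± 0.19, adjusted p = 0.052 on day 3 and 0.29 ± 0.19, adjusted p = 0.42 on day 4, not past the threshold. Hspa1a fell in each genotype by day 3, with -0.48 ± 0.19, adjusted p = 0.043 in emerin KO, -1.60 ± 0.17, adjusted p = 1.0e-07 in lamin A/C KO, and -1.05 ± 0.21, adjusted p = 4.0e-04 in control. The emerin KO call was lost under 6 of 13 alternatives, among them median scaling, the fit that includes the Gapdh ratio, and leaving out emerin KO day 0 replicate 1 or emerin KO day 3 replicate 1. In control the Hspa1a probe set was thus called lower and the brightest probe set of Hspa1b was not called. The difference between the 2 was not tested, and their signal cannot be divided between the genes.

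**Figure D2:**
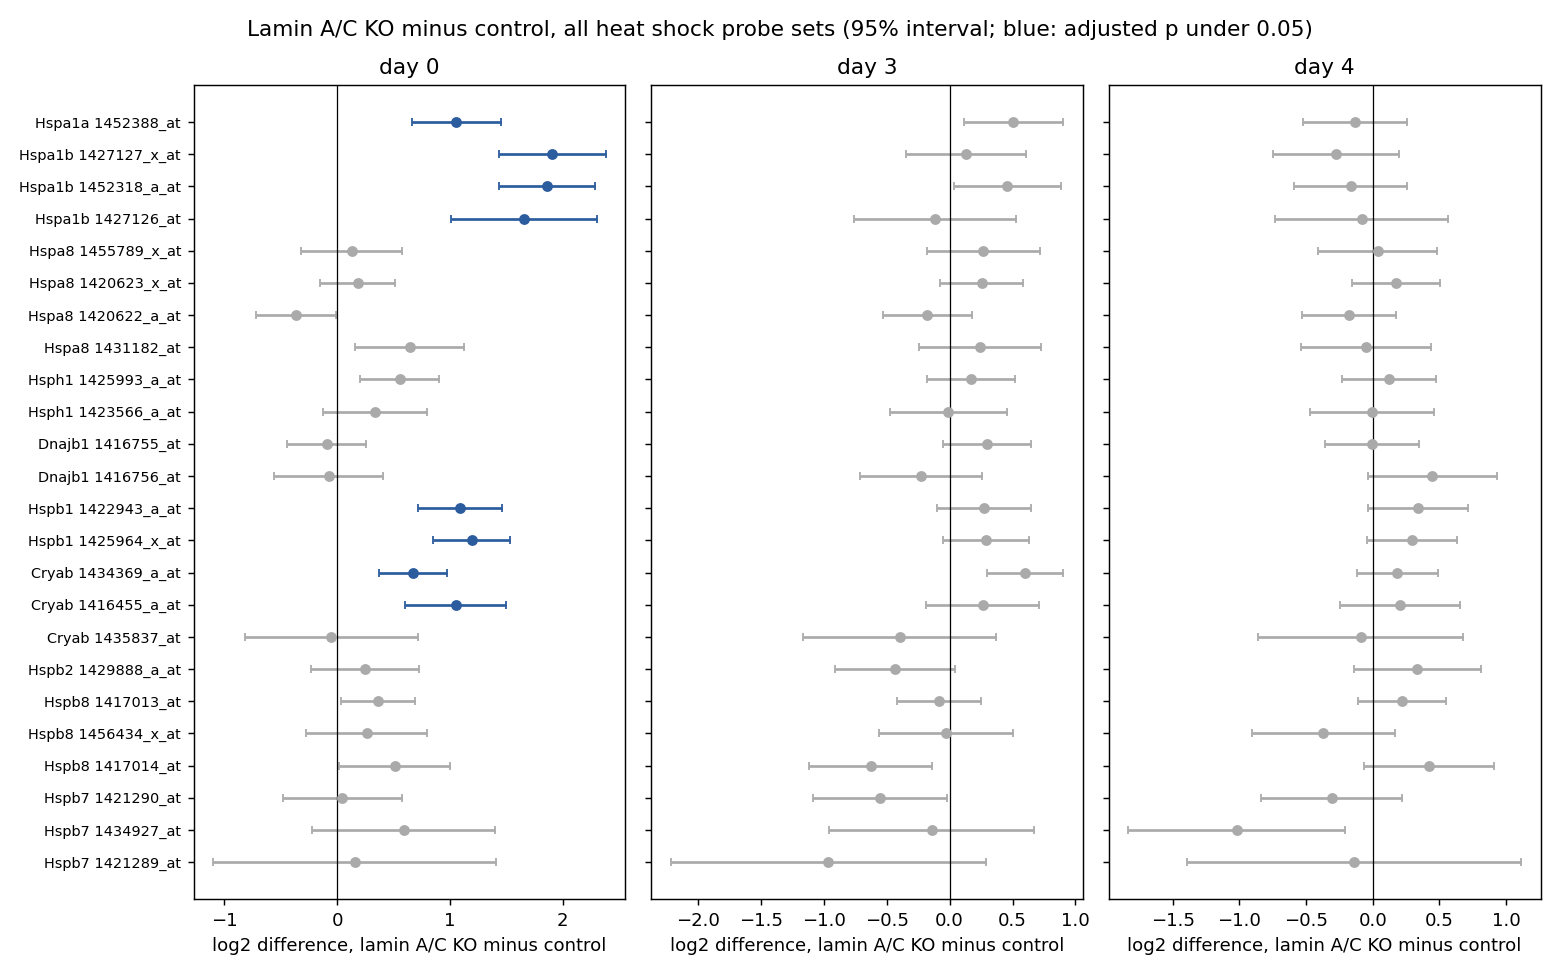
Log2 difference (lamin A/C KO minus control) of all 24 heat shock probe sets on days 0, 3 and 4, with 95% intervals; each panel has its own scale, and blue marks an adjusted p under 0.05. On day 0 the probe sets of Hspa1a, Hspa1b and Hspb1 and 2 of 3 of Cryab are blue, and on days 3 and 4 none is.

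Hspa8 encodes HSC70, the HSP70 made in all cells, and lies at chr9:40801276-40805202 (GRCm38.p6). On day 0 Hspa8, by its brightest probe set, read 6141 and 6721 in emerin KO, 9097, 8455 and 7705 in lamin A/C KO and 8228 and 7159 in control. On day 3 Hspa8 read 11722, 15424 and 7855 in emerin KO, 9434, 11169.8 and 12509 in lamin A/C KO and 8293 and 10006 in control. On day 4 Hspa8 read 8524, 10514 and 11816 in emerin KO, 9693, 8409 and 10958 in lamin A/C KO and 7982 and 11035 in control. The genotypes overlapped on days 3 and 4, and on day 0 the emerin KO arrays lay below the others. Hspa8 gave 0.13 ± 0.22, adjusted p = 0.93 between lamin A/C KO and control on day 0, not called, with a 95% interval of -0.32 to 0.58. It rose after injury in emerin KO (0.80 ± 0.22, adjusted p = 0.0042 on day 3, and 0.66 ± 0.22, adjusted p = 0.017 on day 4). The changes were 0.38 ± 0.19, adjusted p = 0.12 in lamin A/C KO and 0.25 ± 0.24, adjusted p = 0.50 in control on day 3, neither called. The emerin KO change was not called different from that in control (0.56 ± 0.32, adjusted p = 0.40). The rise in emerin KO lost its call on both days in the fit that includes the Gapdh ratio, and on day 4 also without either emerin KO array of day 0 or emerin KO day 4 replicate 3. The second and the third probe set were called in no comparison. The fourth, a dim one, was higher in emerin KO than in control on day 3 (0.71 ± 0.23, adjusted p = 0.045), a call lost under 9 of 13 alternatives.

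Hsph1 encodes HSP105, an HSP110 protein that exchanges nucleotide on HSP70, and lies at chr5:149616843-149636498 (GRCm38.p6). On day 0 Hsph1, by its brightest probe set, read 1349.6 and 1450.5 in emerin KO, 1747, 1383 and 1488 in lamin A/C KO and 1228 and 866 in control. On day 3 Hsph1 read 1598, 1819.9 and 1442 in emerin KO, 1704, 1481 and 1363 in lamin A/C KO and 1300.3 and 1375 in control. On day 4 Hsph1 read 1205, 1177 and 1224 in emerin KO, 1289, 1178 and 1002 in lamin A/C KO and 1225 and 907 in control. Both KO genotypes lay above the 2 control arrays on day 0. The differences from control on that day were 0.43 ± 0.18, adjusted p = 0.26 in emerin KO, and 0.56 ± 0.17, adjusted p = 0.17 in lamin A/C KO, neither called. Its only calls were falls on day 4, of the brightest probe set in lamin A/C KO (-0.40 ± 0.15, adjusted p = 0.042) and of the second probe set in emerin KO (-0.75 ± 0.22, adjusted p = 0.0099). The first call was lost with median scaling and without any 1 of 4 lamin A/C KO arrays, and the second in the fit that includes the Gapdh ratio and without emerin KO day 0 replicate 2.

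Dnajb1 encodes HSP40, the J-domain protein that feeds clients to HSP70, and lies at chr8:83608175-83612653 (GRCm38.p6). On day 0 Dnajb1, by its brightest probe set, read 337 and 401 in emerin KO, 330.1, 354 and 274 in lamin A/C KO and 312 and 373 in control. On day 3 Dnajb1 read 587, 612 and 531 in emerin KO, 665, 617 and 660.2 in lamin A/C KO and 534 and 508 in control. On day 4 Dnajb1 read 449, 627 and 487 in emerin KO, 598, 567 and 607 in lamin A/C KO and 684 and 511 in control. In each genotype the arrays of days 3 and 4 lay above those of day 0, and on day 0 the genotypes overlapped. Dnajb1 rose by day 3 in emerin KO (0.61 ± 0.17, adjusted p = 0.0059), lamin A/C KO (0.96 ± 0.15, adjusted p = 2.5e-05), and control (0.57 ± 0.19, adjusted p = 0.023). It rose by day 4 in emerin KO (0.46 ± 0.17, adjusted p = 0.036), lamin A/C KO (0.83 ± 0.15, adjusted p = 1.6e-04), and control (0.74 ± 0.19, adjusted p = 0.0038). The lamin A/C KO call held under every alternative run on both days. The emerin KO call was lost on both days in the fit that includes the Gapdh ratio and without emerin KO day 0 replicate 1, while the control call of day 3 was lost with quantile normalization, with median scaling, and without control day 0 replicate 1 or either control array of day 3. Between lamin A/C KO and control on day 0 Dnajb1 gave -0.09 ± 0.17, adjusted p = 0.94, while Hspa1b was higher. The second probe set passed only in lamin A/C KO by day 4 (0.84 ± 0.21, adjusted p = 0.0031). In the fit that includes the Gapdh ratio it was also called higher by day 3. The values there were 0.62 (adjusted p = 0.031) in lamin A/C KO and 0.64 (adjusted p = 0.049) in control.

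**Figure D3:**
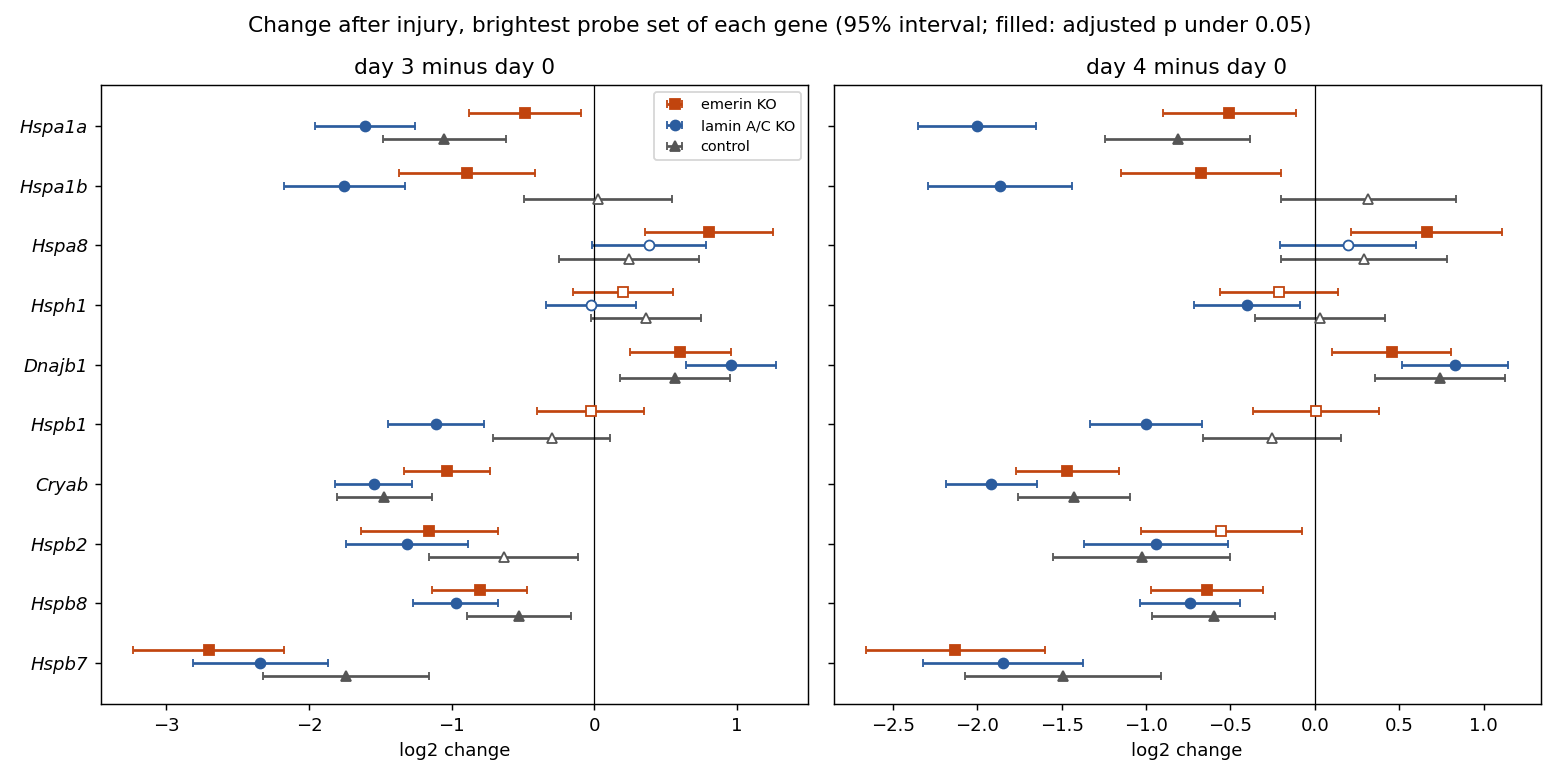
Log2 change between day 0 and day 3 (left) and between day 0 and day 4 (right) of the brightest probe set of each gene in emerin KO, lamin A/C KO and control, with 95% intervals; filled symbols have an adjusted p under 0.05, and the panels have different scales. Dnajb1 lies above 0 and Hspa1a, Cryab, Hspb8 and Hspb7 below 0 with filled symbols in each genotype, while Hspa1b and Hspb1 are filled and low in lamin A/C KO and open in control.

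Hspb1 encodes the small heat shock protein HSP25 (HSP27 in humans), which binds actin, and lies at chr5:135887919-135889563 (GRCm38.p6). On day 0 Hspb1, by its brightest probe set, read 8347 and 6990.2 in emerin KO, 22596, 21095 and 16718 in lamin A/C KO and 9722 and 9067 in control. On day 3 Hspb1 read 8256, 8777 and 5849 in emerin KO, 9989.7, 8874 and 8919 in lamin A/C KO and 6275 and 9295 in control. On day 4 Hspb1 read 7369.7, 8747 and 7026 in emerin KO, 10078, 10037 and 9798 in lamin A/C KO and 8401 and 7360.2 in control. The day 0 lamin A/C KO arrays stood above all others, including the injured ones, and on day 4 the lamin A/C KO arrays stood above those of both other genotypes by a smaller margin. The emerin KO arrays lay below the control arrays on day 0 and overlapped with them on days 3 and 4. Lamin A/C KO was 2.12-fold higher than control on day 0 (1.09 ± 0.18, adjusted p = 0.0031), and the second probe set gave 1.19 ± 0.16, adjusted p = 4.0e-04. The first call was lost with median scaling and without control day 0 replicate 2, and the second was kept under every alternative run. Emerin KO was lower than lamin A/C KO on day 0 (-1.38 ± 0.18, adjusted p = 4.2e-05 for the brightest probe set) and did not differ from control past the threshold (-0.30 ± 0.20, adjusted p = 0.52).

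After injury Hspb1 fell in lamin A/C KO, with -1.11 ± 0.16, adjusted p = 8.0e-06 on day 3, and was lower on day 4 too (adjusted p = 3.6e-05), at a mean of 9971 ± 151 against 20136 ± 3054 on day 0 (SD, n = 3 each). In control the same probe set gave -0.30 ± 0.20, adjusted p = 0.29 on day 3, and in emerin KO -0.02 ± 0.18, adjusted p = 0.93, neither called. The lamin A/C KO change minus the control change was -0.81 ± 0.25, adjusted p = 0.54 on day 3 and -0.75 ± 0.25, adjusted p = 0.44 on day 4, so the difference between the changes was not called. By the second probe set, Hspb1 fell on day 3 in emerin KO (-0.47 ± 0.16, adjusted p = 0.024), lamin A/C KO (-1.45 ± 0.15, adjusted p = 5.1e-08) and control (-0.54 ± 0.18, adjusted p = 0.023), and the emerin KO and control calls were lost with quantile normalization. The emerin KO call was lost too with median scaling, in the fit that includes the Gapdh ratio, and without emerin KO day 0 replicate 2 or day 3 replicate 1. The control call was lost without either control array of day 0 or control day 3 replicate 1, and both were lost in a fit of the compared groups alone. The second probe set was also lower in emerin KO than in lamin A/C KO on day 3 (-0.52 ± 0.15, adjusted p = 0.028; lost under 5 of 14 alternatives) and day 4 (-0.69 ± 0.15, adjusted p = 0.0029). Both of these calls were lost in the fit that includes the Gapdh ratio.

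Cryab encodes alphaB-crystallin, a small heat shock protein that binds desmin. On day 0 Cryab, by its brightest probe set, read 9475 and 8607 in emerin KO, 12964, 13981 and 13184 in lamin A/C KO and 9006 and 7772 in control. On day 3 Cryab read 4773, 4435 and 4034 in emerin KO, 4393, 4222 and 5105 in lamin A/C KO and 2505 and 3580.4 in control. On day 4 Cryab read 3357, 3492 and 2925 in emerin KO, 3532, 3549.8 and 3478 in lamin A/C KO and 3398 and 2821 in control. Lamin A/C KO lay above both other genotypes on day 0, both KO genotypes lay above control on day 3, and on day 4 lamin A/C KO lay above control while emerin KO overlapped with both. The difference between lamin A/C KO and control on day 0 was 0.67 ± 0.15, adjusted p = 0.030, or 1.60-fold, and 1.05 ± 0.22, adjusted p = 0.021 for the second probe set, whose signals were 14589.9, 12759 and 13789.8 in lamin A/C KO and 7068 and 6146 in control. Both calls were lost with median scaling, without either control array of day 0, and without lamin A/C KO day 0 replicate 1 or 3. On day 3 emerin KO was higher than control by the brightest probe set (0.55 ± 0.15, adjusted p = 0.012), while the second probe set gave -0.37 ± 0.22, adjusted p = 0.30, so the 2 probe sets disagreed in sign. The call was lost with median scaling, in the fit that includes the Gapdh ratio, in a fit of those groups alone, and without emerin KO day 3 replicate 1 or control day 3 replicate 1. By the second probe set emerin KO was lower than lamin A/C KO on day 3 (-0.63 ± 0.19, adjusted p = 0.044; lost under 8 of 14 alternatives) and day 4 (-0.83 ± 0.19, adjusted p = 0.0055; lost without emerin KO day 4 replicate 3). The fit that includes the Gapdh ratio lost both of these calls. The third probe set read 66.1 to 254 over all arrays and was called in no comparison.

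Cryab fell in each genotype after injury. By the brightest probe set its level on day 3 was 4414 ± 369.9 against 9041 ± 614 on day 0 in emerin KO (SD, n = 3 and 2), 4574 ± 468 against 13376 ± 535 in lamin A/C KO (n = 3 each), and 3043 ± 760.2 against 8389 ± 872 in control (n = 2 each). The changes were -1.03 ± 0.15, adjusted p = 4.8e-06 in emerin KO, -1.55 ± 0.13, adjusted p = 4.0e-09 in lamin A/C KO and -1.47 ± 0.16, adjusted p = 2.9e-07 in control on day 3. On day 4 they were -1.47 ± 0.15 in emerin KO, -1.92 ± 0.13 in lamin A/C KO and -1.42 ± 0.16 in control, all called. These calls were kept under every alternative run.

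Hspb2 encodes the myotonic dystrophy kinase binding protein, a small heat shock protein of muscle. On day 0 Hspb2, by its only probe set, read 2175 and 2002 in emerin KO, 3526, 3214 and 3906 in lamin A/C KO and 2410.5 and 3658 in control. On day 3 Hspb2 read 1080.2, 843 and 853 in emerin KO, 1724, 1400.0 and 1142 in lamin A/C KO and 1444 and 2503 in control. On day 4 Hspb2 read 1343, 1448 and 1445 in emerin KO, 2008, 1955 and 1549.9 in lamin A/C KO and 1818 and 1142 in control. The emerin KO arrays lay below both other genotypes on days 0 and 3, and lamin A/C KO and control overlapped on each day. Emerin KO was lower than control on day 3 (-1.02 ± 0.23, adjusted p = 0.0042), a call lost without control day 3 replicate 2 and in the fit that includes the Gapdh ratio. Lamin A/C KO gave 0.25 ± 0.23, adjusted p = 0.82 against control on day 0, so of the pair that shares a genomic interval, Cryab was called and Hspb2 was not. The difference between these genes was not tested, and the Cryab calls were lost with median scaling and without either control array of day 0. By day 3 Hspb2 fell in emerin KO (-1.16 ± 0.23, adjusted p = 2.8e-04; lost in the fit that includes the Gapdh ratio) and lamin A/C KO (-1.32 ± 0.21, adjusted p = 2.1e-05), and in control it gave -0.63 ± 0.25, adjusted p = 0.062 on day 3 and -1.03 ± 0.25, adjusted p = 0.0032 on day 4. The day 4 call in control was lost without control day 0 replicate 2 or control day 4 replicate 2.

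Hspb8 encodes HSP22, which works with Bag3 to send damaged filamin to autophagy, and lies at chr5:116408491-116422864 (GRCm38.p6). On day 0 Hspb8, by its brightest probe set, read 4301 and 4426 in emerin KO, 4782, 4573 and 5216 in lamin A/C KO and 3593 and 3945 in control. On day 3 Hspb8 read 2410.3, 2399.8 and 2659 in emerin KO, 2815, 2443 and 2163 in lamin A/C KO and 2194 and 3099.7 in control. On day 4 Hspb8 read 2907, 3139 and 2392 in emerin KO, 3240.1, 2468 and 3015 in lamin A/C KO and 2617 and 2339.5 in control. On day 0 emerin KO lay above control and lamin A/C KO above both, without overlap, and the genotypes overlapped on days 3 and 4. On day 0 the differences from control were 0.21 ± 0.17, adjusted p = 0.62 in emerin KO, and 0.36 ± 0.16, adjusted p = 0.45 in lamin A/C KO, neither called. Hspb8 fell by day 3 in emerin KO (-0.80 ± 0.16, adjusted p = 2.7e-04), lamin A/C KO (-0.97 ± 0.14, adjusted p = 9.7e-06) and control (-0.52 ± 0.17, adjusted p = 0.026). The emerin KO call was lost in the fit that includes the Gapdh ratio, and the control call with quantile normalization and without control day 3 replicate 1 or either control array of day 0. The third probe set also fell by day 3 in emerin KO (-1.70 ± 0.24, adjusted p = 3.5e-06) and lamin A/C KO (-1.55 ± 0.21, adjusted p = 3.5e-06), and gave -0.41 ± 0.26, adjusted p = 0.26 in control. This emerin KO call too was lost in the fit that includes the Gapdh ratio. The third probe set read 401, 240.3 and 447 in emerin KO on day 3 against 748 and 1078 in control, with no overlap (-1.28 ± 0.24, adjusted p = 9.1e-04). On day 4 emerin KO was lower than lamin A/C KO (-0.87 ± 0.21, adjusted p = 0.0072). This call and that of day 3 against control were lost in the fit that includes the Gapdh ratio. In lamin A/C KO the third probe set rose between day 3 and day 4 (0.84 ± 0.21, adjusted p = 0.041), a call lost without any 1 of the 6 arrays compared. The second probe set was called in no comparison.

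Hspb7, the cardiovascular heat shock protein of heart and muscle, lies at chr4:141420779-141425310 (GRCm38.p6), and its 3 probe sets disagreed. On day 0 Hspb7, by its brightest probe set, read 3404 and 3381 in emerin KO, 4716, 3553 and 4215 in lamin A/C KO and 4369 and 3662 in control. On day 3 Hspb7 read 577, 533 and 391 in emerin KO, 754, 833 and 787 in lamin A/C KO and 1026 and 1345 in control. On day 4 Hspb7 read 699, 1152 and 521 in emerin KO, 973, 1331 and 1105 in lamin A/C KO and 1847 and 1064 in control. By this probe set the emerin KO arrays lay below those of both other genotypes on days 0 and 3 and overlapped with both on day 4. Lamin A/C KO lay below control on day 3 and overlapped with it on days 0 and 4.

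On day 0 the second probe set of Hspb7 read 5507 and 5022 in emerin KO, 2238, 1578 and 1708 in lamin A/C KO and 1166 and 1231 in control. On day 3 it read 1995, 2604 and 959 in emerin KO, 273, 254 and 611 in lamin A/C KO and 254 and 592 in control. On day 4 it read 2433, 2608 and 1276 in emerin KO, 441, 334 and 277 in lamin A/C KO and 652 and 821 in control. Here the emerin KO arrays lay above those of both other genotypes on every day, the opposite order. Emerin KO minus control by the second probe set was 2.11 ± 0.43, adjusted p = 0.0071 on day 0, 2.04 ± 0.39, adjusted p = 0.0013 on day 3, and 1.42 ± 0.39, adjusted p = 0.038 on day 4. By the brightest probe set it was -0.24 ± 0.28, adjusted p = 0.74 on day 0, -1.20 ± 0.25, adjusted p = 0.0028 on day 3, and -0.88 ± 0.25, adjusted p = 0.049 on day 4. The third probe set lay on the side of the brightest one, with -1.25 ± 0.66, adjusted p = 0.39 on day 0, -2.17 ± 0.60, adjusted p = 0.016 on day 3, and -2.08 ± 0.60, adjusted p = 0.047 on day 4. Its emerin KO signals were 27.3, 34.0 and 128 on day 3 and 28.6, 277 and 8.51 on day 4. They lay partly under the minimum of 100, so the size of its difference is uncertain on both days. With the Gapdh ratio as a covariate the second probe set kept its day 0 call only, the brightest probe set and the third probe set kept none, and the third probe set turned to 1.08 on day 3. The day 0 call of the second probe set was lost without emerin KO day 0 replicate 2 and without either control array of day 0. Against lamin A/C KO the second probe set was higher in emerin KO on each day, from 1.51 ± 0.39 on day 0 (lost with median scaling and without any of 4 single arrays) to 2.44 ± 0.35 on day 4, while the third was lower on day 4 (-1.94 ± 0.54, adjusted p = 0.017). The calls of days 3 and 4 against lamin A/C KO were lost in the fit that includes the Gapdh ratio. Of the day 3 calls against control, that of the brightest probe set was lost without control day 3 replicate 2, that of the second without control day 3 replicate 1, and that of the third without either of them or either of emerin KO day 3 replicates 1 and 2. The day 4 calls were lost under 9 or 10 of 14 alternatives. No direction is given for Hspb7 as a gene between emerin KO and control.

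**Figure D4:**
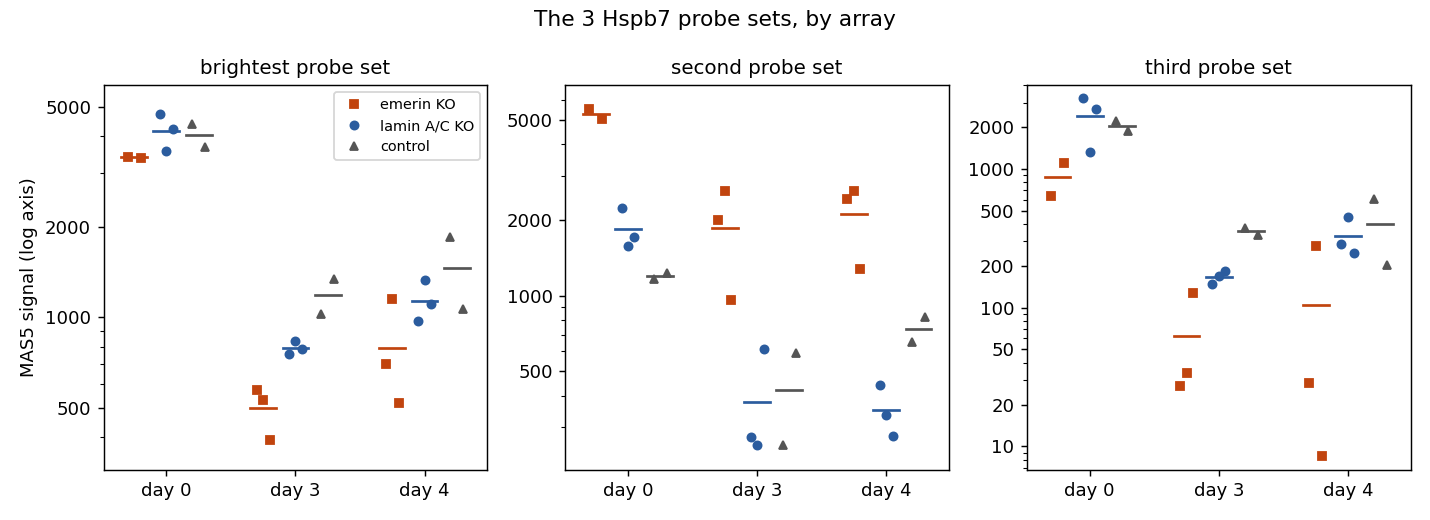
MAS5 signal (log axis) of the 3 Hspb7 probe sets on every array, by day, with a bar at the group mean; each panel has its own scale. The emerin KO arrays lie above the other genotypes on each day for the second probe set, and below control on day 3 for the brightest and the third.

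After injury, in contrast, the Hspb7 probe sets moved the same way. By the brightest probe set Hspb7 was 6.51-fold lower on day 3 than on day 0 in emerin KO (-2.70 ± 0.25, adjusted p = 1.5e-08), 5.06-fold lower in lamin A/C KO (-2.34 ± 0.23, adjusted p = 3.2e-08), and 3.34-fold lower in control (-1.74 ± 0.28, adjusted p = 4.2e-05). The other 2 probe sets were lower on day 3 in each genotype too, with log2 changes of -3.53 to -1.54, all called. Their emerin KO calls were lost in the fit that includes the Gapdh ratio. The control call of the second was lost without control day 3 replicate 1, and that of the third without control day 0 replicate 1 and with a pseudocount of 1. On day 4 the control change of the second probe set was -0.69 ± 0.43, adjusted p = 0.26, not called, and the other 2 remained lower.

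Chaperones outside the 10 genes were read by the brightest probe set of each gene. On day 0 limma called 0 of them between lamin A/C KO and control in either direction. Over all probe sets 0.563% were higher and 0.108% lower, so 0 called in lists this short is no result about a list. The lists held 12 HSP90 proteins and co-chaperones (median log2 difference 0.05), 21 J-domain, BAG and HSP70 partner proteins (0.02), 13 subunits of the TRiC chaperonin and prefoldin (0.09), and 10 mitochondrial chaperones (-0.01). The remaining lists were 3 other small heat shock proteins (0.10), and 2 of 4 listed genes of heat shock factors and their regulators, the factor Hsf4 and Hsbp1, whose product binds heat shock factor 1 (-0.16). A list of 14 immediate early genes such as Fos and Egr1, added after the members' values had been seen, also had 0 called, with a median of 0.13. Its largest difference was Atf3, a stress-induced factor, with 0.85 ± 0.25, adjusted p = 0.16.

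Some cell type markers were called in that comparison, beside 0.563% higher and 0.108% lower over all probe sets. Of 9 regenerating muscle markers, 4 were higher in lamin A/C KO on day 0: Myl4 (1.80 ± 0.21, adjusted p = 4.9e-05), Myh8 (1.52 ± 0.20, adjusted p = 2.7e-04), Tnnt2 (1.46 ± 0.21, adjusted p = 7.2e-04) and Chrna1 (0.64 ± 0.15, adjusted p = 0.048). The first 3 encode sarcomere proteins of fetal muscle and Chrna1 a subunit of the acetylcholine receptor. Of 13 macrophage markers, 3 were higher: Lgals3 (1.55 ± 0.23, adjusted p = 0.0011), C1qa (0.80 ± 0.14, adjusted p = 0.0070) and Lyz2 (0.79 ± 0.17, adjusted p = 0.029). Of 12 mature fiber markers, 0 were called. The summed regenerating markers were 25193 to 31768 in lamin A/C KO against 23142 to 26011 in control, and the summed macrophage markers 10040.2 to 12008 in lamin A/C KO against 6430.0 to 8572 in control. The Gapdh ratios were 0.852 to 0.963 in lamin A/C KO and 0.829 to 0.949 in control on that day. Between emerin KO and lamin A/C KO on day 0, where the same members were lower in emerin KO, 7 of 9 regenerating, 4 of 13 macrophage and 4 of 7 fibroblast markers were lower too. Over all probe sets 3.80% were lower there. Of the 7 fibroblast markers 0 were called between lamin A/C KO and control on day 0. The part of these cells in the higher Hspa1b, Hspa1a, Hspb1 and Cryab was not tested.

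After injury, chaperones outside the 10 genes were called in both directions by day 3. Over all probe sets the shares were 22.4% higher and 21.2% lower in emerin KO, 21.1% higher and 18.6% lower in lamin A/C KO and 18.0% higher and 12.7% lower in control, and counts near these shares, such as that of the HSP90 list in control, are no result about a list. In control on day 3 the inducible HSP90 gene Hsp90aa1 rose (1.68 ± 0.21, adjusted p = 2.5e-06) among 2 of 12 HSP90 list genes that rose and 1 that fell, with a list median of -3.1e-04 beside 0.08 over all probe sets. Hsp90aa1 rose in emerin KO (1.75 ± 0.20, adjusted p = 1.8e-07) and lamin A/C KO (1.17 ± 0.17, adjusted p = 1.2e-05) as well. Of the 21 J-domain and partner genes, 3 rose and 5 fell in control, 6 rose and 9 fell in emerin KO, and 3 rose and 9 fell in lamin A/C KO. Dnaja1, a J-domain partner of HSC70, rose with 1.41 ± 0.19 in emerin KO, 1.03 ± 0.17 in lamin A/C KO and 1.28 ± 0.21 in control. Dnajb5 fell in each, with -2.21 ± 0.27 in emerin KO, -1.96 ± 0.24 in lamin A/C KO and -2.26 ± 0.29 in control. Of the 13 TRiC and prefoldin genes, 4 rose and 3 fell in control. The TRiC subunit Cct8 rose (1.19 ± 0.16, adjusted p = 4.8e-06), and the prefoldin subunit Pfdn2 fell (-0.64 ± 0.21, adjusted p = 0.021). Of 10 mitochondrial chaperones, 0 rose and 3 fell in control, among them Hspa9, the mitochondrial HSP70 (-0.64 ± 0.15, adjusted p = 0.0025).

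Between emerin KO and control on day 3, 4 of 21 J-domain and partner genes were higher and 3 lower, with a median of 0.13. The shares over all probe sets were 6.52% higher and 9.31% lower. Bag3, the partner of Hspb8, was higher (0.85 ± 0.14, adjusted p = 3.3e-04), as was Stub1, the ubiquitin ligase CHIP that acts on HSP70 clients (0.68 ± 0.15, adjusted p = 0.0041). Dnajb4, a J-domain protein of muscle, was lower (-1.40 ± 0.29, adjusted p = 0.0023). Of the 12 HSP90 list genes, 0 were higher and 2 lower, with St13, which links HSP70 and HSP90, at -1.52 ± 0.24, adjusted p = 2.1e-04. Beside this, 4 of 12 mature fiber markers were lower, 2 of 9 regenerating markers were higher and 5 lower, 3 of 13 macrophage markers were higher and 1 lower, and 3 of 7 fibroblast markers were lower. These emerin KO arrays are those of the high Gapdh ratio.

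Over the 23 arrays, which share the 9 groups, the log2 signals of the brightest probe sets fell into a shared pattern for most members. Pearson correlations among Cryab, Hspb2, Hspb8 and Hspb7 were 0.692 to 0.875, Hspa1a and Cryab correlated at 0.902, and Dnajb1 correlated with each of these 5 genes at -0.709 to -0.818. Hsph1 correlated with no member above 0.320. The gene most like Cryab over the arrays was Map2k3 (0.949), a kinase of the p38 pathway, followed by Sqstm1 (0.938), the autophagy receptor p62, and U2af1l4 (0.934), a splicing factor. For Hspa1b the most alike was another member, Hspb1 (0.933, the second probe set), then Rgcc (0.891) and Atp9a (0.882). For Hspb1 they were Ube2g2 (0.878), a ubiquitin-conjugating enzyme of the endoplasmic reticulum, Hspa1b (0.851), and Psmc1 (0.835), a proteasome subunit. These are descriptions of the same arrays, whose days and genotypes they share, and carry no test.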

How the data were processed

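RNA of gastrocnemius muscle had been hybridised to 1-colour Affymetrix arrays, 1 per sample. The authors deposited MAS5 signals, a linear intensity per probe set; per the submitters' processing notes the tool was MAS5 (version not given in the sources used here). The deposited intensity values had a trimmed mean (2% off each side) of 150.04 to 150.06 on every array. From these, every array's signals were multiplied to bring the trimmed mean to 500, 32 was added and log2 was taken. Probe sets under a signal of 100 on all but 1 array or on all arrays were left out.

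Groups came from titles and descriptions. All 23 arrays in 9 groups were fitted with limma 3.58.1 (R 4.3.3; trended eBayes, 14 residual degrees of freedom) for 22 comparisons, with Benjamini-Hochberg adjustment over 19522 probe sets and a threshold of 0.05. The script was tested on simulated data. Figures used matplotlib 3.10.9. Symbols came from GEO's platform annotation (20380 probe sets with 1 symbol, 691 with several, 1555 with none); promoter windows came from RefSeq on GRCm38.p6. Other chaperones and markers were read by each gene's brightest probe set.

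Named genes were all members, and others from fixed lists by size of change or as most correlated with a member. The members and lists were chosen with earlier results of these data known. Alternatives were quantile normalization, median scaling, pseudocounts of 1 and 100, no filter, a replicate block, only the compared groups, the Gapdh ratio as a covariate, arrays of a Gapdh ratio over 2 left out, and each array left out in turn. Detection calls were not used here.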

Additional observations from a re-analysis of the deposited data

Results flagged for a closer look

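For Hspa1b, 2 of 3 probe sets gave a called difference between the changes after injury in lamin A/C KO and control, by the limma test of the difference itself, on day 4, and 1 of 3 on day 3. By its brightest probe set the lamin A/C KO change minus the control change was -1.78 ± 0.32 on the log2 scale (adjusted p = 0.026) on day 3, a call lost with quantile normalization, with median scaling and without any of 7 single arrays. On day 4 the same probe set gave -2.18 ± 0.32 (adjusted p = 0.0035). The second probe set gave -2.03 ± 0.29 on day 4 (adjusted p = 0.0023) and was not called on day 3 (-1.40 ± 0.29, adjusted p = 0.069). The third probe set was called on neither day, with adjusted p = 0.23 on day 3 and adjusted p = 0.20 on day 4. Only with the Gapdh ratio in the limma fit was it called on day 4 (-1.97, adjusted p = 0.0051). Each difference between changes is the genotype difference of that day minus the genotype difference of day 0. On days 3 and 4 limma called 0 members between lamin A/C KO and control. These values thus largely restate the day 0 difference, from the same day 0 arrays, and are not a separate result. The lamin A/C KO arrays of day 0 are described as 0 days post-injection and the control arrays of day 0 as not injected. Whether that is a difference in wording or in handling is not stated, and if it is one in handling, genotype and injection cannot be told apart in these values.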

How the results depend on the processing

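Of 117 called member results, 54 kept their call under every alternative run and 63 lost it under at least 1, among them 49 without a single array, 40 with the Gapdh ratio as a covariate, 20 with median scaling, 20 in a fit of the compared groups alone, 9 with quantile normalization, 7 with no filter, 5 with a pseudocount of 1 and 1 with a pseudocount of 100. Without the arrays of high Gapdh ratio, 13 of the 92 called results that could be tested lost their call. Hspb7 by its dimmest probe set turned round with the Gapdh ratio as a covariate, to 1.08 in emerin KO minus control on day 3 and to 0.46 in emerin KO minus lamin A/C KO on day 4; the cause was not tested.

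Counts of members called moved as follows. With the Gapdh ratio as a covariate they were 4 in emerin KO by day 3, 4 in emerin KO by day 4, 0 in lamin A/C KO between days 3 and 4, 0 in emerin KO minus control on day 3 and on day 4, and 0 in emerin KO minus lamin A/C KO on day 3 and on day 4. Without the 5 arrays of high Gapdh ratio they were 0 in emerin KO minus control and 1 in emerin KO minus lamin A/C KO on day 4; emerin KO on day 3 then has no array. With median scaling, day 0 of lamin A/C KO minus control had 5, and there were 0 each in emerin KO minus control on day 4, in lamin A/C KO between days 3 and 4, and in the lamin A/C KO change minus the control change on day 3. With quantile normalization the last was 0 and the same difference for emerin KO was 1. In a fit of the compared groups alone, emerin KO minus control had 5 on day 3 and 0 on day 4. With no filter it had 0 on day 4, and lamin A/C KO between days 3 and 4 had 0 with no filter and 0 with a pseudocount of 1.

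Without single arrays the counts ran from 5 to 9 in control by day 3, 5 to 7 in control by day 4, 0 to 2 in emerin KO minus control on day 0, 3 to 8 on day 3 and 0 to 4 on day 4. For day 0 of lamin A/C KO minus control they ran from 3 to 7, with 4 without control replicate 1 and 3 without control replicate 2, and from 1 to 5 and 2 to 10 in emerin KO minus lamin A/C KO on days 3 and 4. Lamin A/C KO between days 3 and 4 had 0 without any single array. The emerin KO change minus the control change had 0 to 1 on each day, and the lamin A/C KO change minus the control change 0 to 1 on day 3.

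The replicate numbers were not used as pairs in the main fit. In no comparison with 3 pairs did every pair correlate above 0.1 in its deviations from the group means. That does not exclude pairing. In lamin A/C KO the same-numbered array was the best match for 3 of 3 arrays between days 0 and 4 (0.063 to 0.202). It was so between days 3 and 4 too (0.024 to 0.155), and for 0 or 1 in the other comparisons with 3 pairs. With the replicate block 5 of 117 called results lost their call, emerin KO minus control on day 4 had 1 called member, and lamin A/C KO between days 3 and 4 had 0. Median scaling moved the median of all probe sets by more than 0.1 in some comparisons, such as the lamin A/C KO change minus the control change on day 3, to 0.08 with median scaling against -0.09 as reported. Signal near background limits the dimmest probe set each of Hspb7, Cryab and Hspa8.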
